A study of Mus musculus with 6 samples.

Results

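Cytosolic ribosomal protein genes encode the structural proteins of the ribosome, and 83 of the 12560 genes in the deposited expression table belonged to them. They were taken by symbol, as names that begin with Rpl, Rps or Rplp followed by a digit. Of 98 symbols of this form, 8 kinases of the Rps6k family, Rps19bp1 and 6 pseudogenes were left out. Of the 83 genes, 51 belonged to the large and 32 to the small ribosomal subunit. A core of 76 genes encodes the standard ribosomal proteins, 46 in the large and 30 in the small subunit. The other 7 (Rpl3l, Rpl7l1, Rpl10l, Rpl22l1, Rpl36al, Rps27l and Rps27rt) are paralogs, that is, related copies of a core gene.

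Total RNA had been sequenced from samples labelled chondrocytes (cartilage cells), with 3 libraries from Eldr cKO mice and 3 from control mice. The target, Eldr, is a long noncoding RNA, and its conditional knockout is compared with the control in the setting of cartilage ageing. The driver of the deletion, the age and strain of the mice, and any allele carried by the controls are not given in the sources used here. Nor do the labels say that libraries of a genotype came from separate animals, so the spread between libraries may be technical. The genotypes could not be checked on Eldr, which was not analysed here for want of a row.

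The ribosome is built from ribosomal RNA and many proteins, each usually needed in equal number, and the small subunit reads the messenger RNA while the large subunit joins amino acids. Genes of these proteins are among the most strongly transcribed in growing cells. Their mRNAs carry a pyrimidine-rich start, the terminal oligopyrimidine (TOP) tract, through which mTOR signalling controls their translation. Free Rpl5 and Rpl11 bind Mdm2 and thereby stabilise p53 when ribosome assembly is disturbed.

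The libraries were shallow. Depth, estimated from the steps of the FPKM values (fragments per kilobase of transcript, scaled to library size), was 191543, 52267 and 55987 fragments in Eldr cKO 1, 2 and 3 and 464361, 79498 and 130367 in control 1, 2 and 3. The 83 genes together stood on about 1472, 271.2 and 394 fragments in Eldr cKO and on about 2242, 353.6 and 1485 in control. At their median transcript length of 711.5 bases, 1 fragment was worth 7.34, 26.9 and 25.1 FPKM in Eldr cKO and 3.03, 17.7 and 10.8 FPKM in control. Listed chondrocyte markers were sparse: 6 of 15 had a row, with sums of 18.7, 9.54 and 6.44 FPKM in Eldr cKO and 19.6, 0.616 and 12.5 FPKM in control, while Col2a1 and Acan were without a row and are not analysed here. Sox9, which specifies chondrocytes, was listed at 1.24, 0 and 6.13 FPKM in Eldr cKO and at 0.877, 0 and 0.728 FPKM in control. The 15 heart muscle markers summed to 9173.9, 2261.0 and 2645.7 FPKM in Eldr cKO and to 10086.7, 2623.0 and 1085.4 FPKM in control, so the labelled cell type was not borne out by its markers. In bulk RNA, fewer cells of a type and less RNA per cell cannot be told apart.

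The start regions of 4 of the 6 core genes whose levels separated the genotypes, and of the muscle paralog Rpl3l, are shown to let their sequence be read beside the levels given further on. Each runs from 60 bases before to 30 bases after the RefSeq start on GRCm38.p6, read along the gene's strand. Capitals mark CGGAAG on either strand, the core of sites for Ets family factors, and CTTTC on the sense strand, a short pyrimidine run of the kind found in TOP tracts. The stretches lie at chr11:68901506-68901595 on the plus strand (Rpl26), chr11:101442185-101442274 on the plus strand (Rpl27), chr10:128549139-128549228 on the minus strand (Rpl41), chr7:45718011-45718100 on the plus strand (Rpl18) and chr17:24727766-24727855 on the plus strand (Rpl3l).
Rpl26: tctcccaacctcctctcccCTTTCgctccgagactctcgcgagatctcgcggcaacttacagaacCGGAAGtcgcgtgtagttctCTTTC
Rpl27: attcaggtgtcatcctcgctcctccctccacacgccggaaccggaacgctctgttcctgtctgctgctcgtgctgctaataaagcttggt
Rpl41: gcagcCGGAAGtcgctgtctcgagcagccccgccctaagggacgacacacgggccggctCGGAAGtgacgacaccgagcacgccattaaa
Rpl18: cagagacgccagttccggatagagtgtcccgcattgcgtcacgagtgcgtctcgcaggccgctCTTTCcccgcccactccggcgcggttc
Rpl3l: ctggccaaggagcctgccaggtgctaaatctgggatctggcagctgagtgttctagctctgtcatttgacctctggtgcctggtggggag

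Rpl26 held both motifs, Rpl41 held CGGAAG, Rpl18 held CTTTC, and Rpl27 and Rpl3l held neither in these windows. The deposited gene positions start elsewhere, at chr11:68901583 (Rpl26), chr11:101442298 (Rpl27), chr7:45715457 (Rpl18) and, on the minus strand, chr10:128549305 (Rpl41). The Rpl27 window ends before the deposited start of that gene. These matches therefore describe RefSeq starts and not the deposited ones. Counted from the RefSeq start, neither CTTTC of Rpl26 lay between 10 bases before and 20 after, where that of Rpl18 lay. Counted from the deposited start, the CTTTC that ends the printed Rpl26 window does lie within that stretch. The search was run over windows of 250 bases before to 50 after the start, which were given for 63 of the 83 genes. Among 66 windows of 56 core genes, 41 (62.1%) held CGGAAG on either strand, against 16.9% of 32851 windows of all genes. CTTTC on the sense strand between 10 bases before and 20 after the start was found in 14 (21.2%) of the core windows, against 3.74% of all. CTTTC anywhere on either strand was found in 81.8% of core windows, against 57.3% of all. TATAAA, the TATA box, was found in 9.09% of core windows, against 13.6% of all. CTTTC and CGGAAG shared a base in 53 of all windows. These matches describe letters in a window and do not show that a factor binds.

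Core ribosomal protein genes were detected more evenly than other genes, which were not matched to them in level. Of the 76, 75 were above 0 in all 6 libraries, against 600 of the 917 tested genes averaging 20 FPKM or more. That bound is below the 26.9 and 25.1 FPKM that 1 fragment was worth in Eldr cKO 2 and 3 at the median length of the 83. The exception was Rps28 of the small subunit, listed at 70.0, 25.2 and 18.2 FPKM in Eldr cKO and at 35.2, 0 and 97.8 FPKM in control. Of the 83, 98.8%, 94.0% and 96.4% were above 0 in Eldr cKO and 98.8%, 94.0% and 98.8% in control, while of the other rows 73.4%, 36.3% and 38.7% were above 0 in Eldr cKO and 79.0%, 37.2% and 62.1% in control. The median ribosomal protein gene ranked between the 97.1 and 98.5 percentile of all rows in every library. Mean levels of core genes over the 6 libraries ran from 12.9 FPKM (Rpl35a) to 371 FPKM (Rpl17), with a median of 85.4 FPKM.

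The 12 genes with the highest mean FPKM were Rpl17, Rplp1, Rps3a1, Rpl19, Rpl32, Rps15, Rpl4, Rpl23a, Rplp0, Rpl36, Rps21 and Rpl38. Rpl17, a protein near the exit of the peptide tunnel, was listed at 355, 309 and 355 FPKM in Eldr cKO and at 297, 123 and 787 FPKM in control. Rps3a1, of the small subunit, was listed at 310, 222 and 335 FPKM in Eldr cKO and at 248, 255 and 680 FPKM in control. Rpl19, of the large subunit, was listed at 392, 217 and 393 FPKM in Eldr cKO and at 232, 269 and 508 FPKM in control. For each of these 3 genes control 3 was the highest library and the genotypes overlapped.

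The same held for Rpl32 (275, 245 and 128 FPKM in Eldr cKO, 159, 228 and 718 FPKM in control), Rps15 (237, 153 and 431 FPKM in Eldr cKO, 152, 120 and 546 FPKM in control) and Rpl23a (284, 280 and 126 FPKM in Eldr cKO, 259, 85.5 and 569 FPKM in control). Rpl4, of the large subunit, was uneven, with 283, 38.0 and 326 FPKM in Eldr cKO and 264, 74.6 and 618 FPKM in control. Its low values were in Eldr cKO 2 and control 2, the shallowest library of each genotype. Rps21 was at 223, 199 and 181 FPKM in Eldr cKO and at 175, 16.7 and 453 FPKM in control, so its lowest and highest libraries were both controls. Rpl38, linked in mice to the translation of Hox mRNAs, was at 255, 183 and 264 FPKM in Eldr cKO and at 198, 58.0 and 282 FPKM in control. Rpl8 was the steadiest of the abundant genes, at 273, 178 and 220 FPKM in Eldr cKO and at 169, 195 and 160 FPKM in control.

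Across the core, the highest of the 6 libraries exceeded the lowest by a median of 3.90 times, among the 75 genes above 0 in all. This range was smallest for Rpl34 (1.70 times; 22.6, 21.6 and 36.8 FPKM in Eldr cKO, 29.5, 27.0 and 32.8 FPKM in control). It was widest for Rps21 (27.2 times) and Rpl24 (27.0 times; 70.2, 18.2 and 186 FPKM in Eldr cKO, 139, 12.5 and 339 FPKM in control). The lowest values of Rps21 and Rpl24, both in control 2, stood on about 0.522 and 0.675 fragments. That of Rpl34, in Eldr cKO 2, stood on about 0.705, so these ranges depend on the steps of the data. The highest library was control 3 for 42 of the 76 core genes, Eldr cKO 1 for 14, Eldr cKO 3 for 8, Eldr cKO 2 for 7, control 2 for 4 and control 1 for 1. The lowest library was control 2 for 26 and control 1 for 24. The control libraries thus held most of both extremes. The median within-genotype SD of log2(FPKM + 1) was 0.75 for core genes, 1.41 for all tested genes and 1.42 for the 917 tested genes averaging 20 FPKM or more. These sets were not matched in level.

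**Figure D1:**
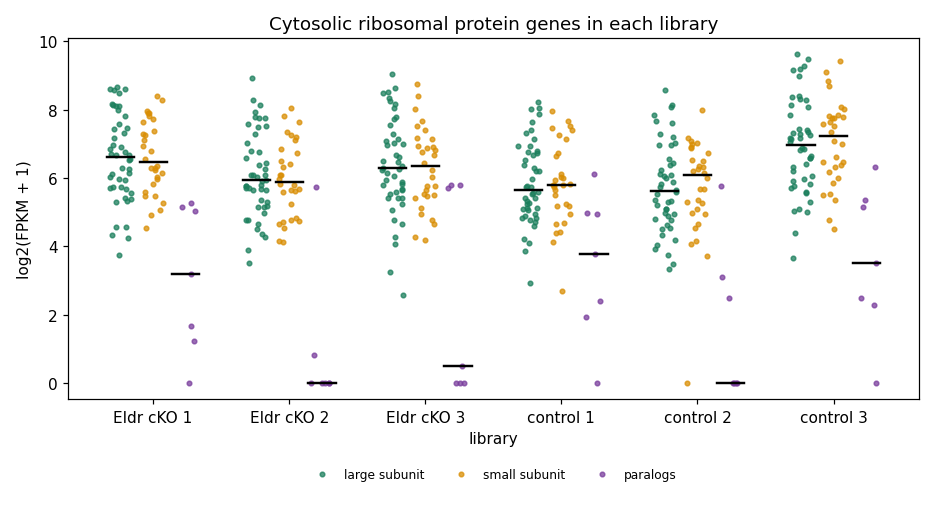
Each point is 1 ribosomal protein gene, on the log2(FPKM + 1) axis, in each of the 3 Eldr cKO and 3 control libraries, and black lines are medians of the large subunit core, the small subunit core and the paralogs. The core sits highest in control 3, where the median over all 83 genes was 114 FPKM, and most paralogs lie at or near 0 in Eldr cKO 2, Eldr cKO 3 and control 2.

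In the plot of all genes by library, the medians of the core overlap between genotypes. Summed over the 83 genes, the level was 10168.5, 7057.6 and 9186.5 FPKM in Eldr cKO and 6200.1, 5884.9 and 14556.2 FPKM in control. The median gene was at 77.6, 54.0 and 69.8 FPKM in Eldr cKO and at 52.1, 48.7 and 114 FPKM in control. Control 3 was the highest library and the other 2 controls the lowest, so the genotypes overlapped. Pearson correlations of log2(FPKM + 1) over the 83 genes were 0.69 to 0.87 for pairs within a genotype and 0.67 to 0.86 for pairs across genotypes. Over all rows they were 0.41 to 0.53 within and 0.42 to 0.71 across genotypes. Genes are not independent replicates, and these values describe the libraries only.

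The share of all summed FPKM held by ribosomal protein genes was 3.62%, 1.75% and 2.23% in Eldr cKO and 1.43%, 1.58% and 5.29% in control. Transcripts of the mitochondrial genome took 43.6%, 33.9% and 33.8% in Eldr cKO and 68.0%, 70.0% and 41.1% in control, and predicted genes named Gm took 4.2%, 49.4% and 46.5% in Eldr cKO and 3.26%, 13.2% and 14.0% in control. Outside mitochondrial transcripts the ribosomal protein share was 6.41%, 2.65% and 3.37% in Eldr cKO and 4.47%, 5.27% and 8.99% in control. Outside both kinds it was 6.92%, 10.5% and 11.3% in Eldr cKO and 4.98%, 9.4% and 11.8% in control. The difference of means, Eldr cKO minus control, was -0.234 percentage points of the whole, -2.1 outside mitochondrial transcripts and 0.852 outside both. The genotypes overlapped on each of the 3 scales, and the sign of the difference depended on the scale. Their order also depended on control 3, without which the difference over the whole was 1.03 percentage points.

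**Figure D2:**
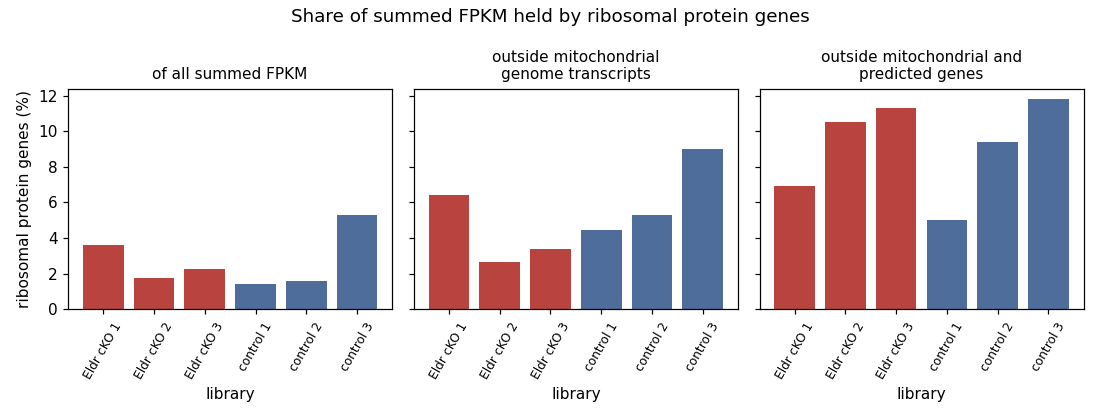
Bars show the percent of summed FPKM held by the 83 ribosomal protein genes in each library, red for Eldr cKO and blue for control, of the whole, outside mitochondrial genome transcripts, and outside mitochondrial and predicted genes. The share in control 3 was 5.29%, 8.99% and 11.8% on the 3 scales, the highest library each time.

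The balance of the subunits varied little between libraries. The sum over large subunit genes was 1.69, 1.85 and 1.78 times that over small subunit genes in Eldr cKO and 1.57, 1.67 and 1.6 times in control. The counting error of these ratios was between 0.069 and 0.234. The genotypes did not overlap on this ratio, but they did without the paralogs (1.68, 1.83 and 1.78 in Eldr cKO, 1.58, 1.7 and 1.61 in control), and in fragments in place of FPKM (1.75, 1.77 and 1.81 in Eldr cKO, 1.76, 1.65 and 1.8 in control). Without the highest gene of each subunit they overlapped too (1.74, 1.89 and 1.87 in Eldr cKO, 1.61, 1.82 and 1.66 in control). As the mean log2(FPKM + 1) of large minus small subunit genes, paralogs included, the genotypes did not overlap (-0.0925, -0.0188 and -0.108 in Eldr cKO, -0.131, -0.225 and -0.334 in control). The 10 most abundant genes held 33.5%, 37.6% and 39.1% of the summed level of the family in Eldr cKO and 35.9%, 38.3% and 40.4% in control.

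No ribosomal protein gene passed the comparison of Eldr cKO with control. All 83 averaged 1 FPKM or more and were tested among 9007 genes with limma on log2(FPKM + 1). At an adjusted p under 0.05 (Benjamini-Hochberg over all tested genes), limma called 0 of the 83 and 0 of 9007 genes, 0% in each direction, and the smallest adjusted p among the 83 was 1.00. The unadjusted limma p was under 0.05 for 1 of the 83, Rps27l, lower in Eldr cKO, against 1.04% of all tested genes in that direction, and for 0 of the 83 higher in Eldr cKO, against 0.455%. An unmoderated model called 2 genes of the whole table and 0 ribosomal protein genes, and limma with library quality weights called 6 and 0. The fit placed infinite weight on its variance trend, so each SE reflects genes of like level and not the gene's own spread. The own SD was below that of the trend for 70 of 76 core genes.

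Fitted means of the core were higher in Eldr cKO for 45 genes and lower for 31, with a median log2 fold change of 0.07 and a range of -1.26 (Rps29) to 1.44 (Rpl26). In the large subunit core 28 were higher and 18 lower (median 0.11), and in the small subunit core 17 were higher and 13 lower (median 0.04). Of all 83, 47 were higher and 36 lower, and the median was 0.06, while 45.5% of all tested genes had the higher mean in Eldr cKO and their median was -0.13. Single controls set this split. Without control 3 it was 68 higher and 14 lower (median 0.49), without control 2 it was 31 and 52 (median -0.11), and without control 1 it was 35 and 48 (median -0.10).

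**Figure D3:**
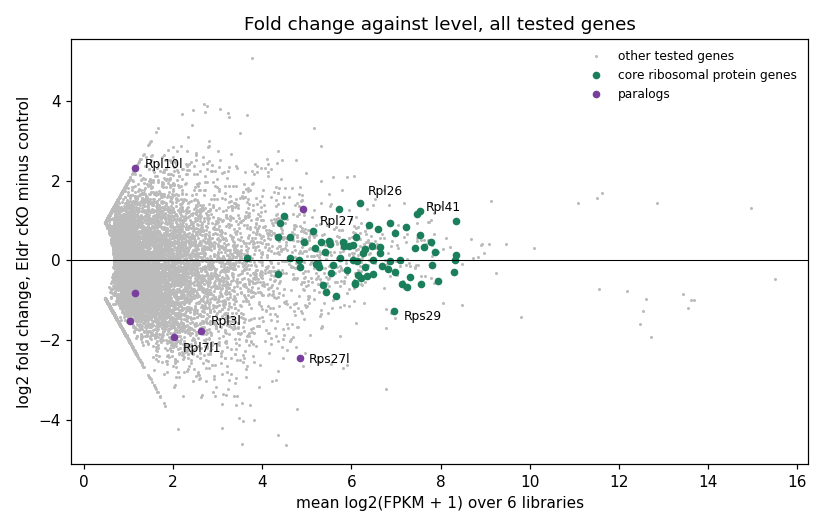
Each point is 1 of the 9007 tested genes, with its mean log2(FPKM + 1) over 6 libraries on the horizontal axis and its log2 fold change, Eldr cKO minus control, on the vertical axis. Core ribosomal protein genes (green) lie between -1.26 and 1.44 at the abundant end, and paralogs (purple) lie at lower levels and spread further.

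Some genes separated the genotypes although they did not pass the test. Every Eldr cKO library lay above every control library for 6 of the 83 genes (Rpl26, Rpl27, Rpl41, Rplp1, Rps14 and Rpl18), against 1.49% of all tested genes, and for 0 of the 83 the reverse held, against 2.45%. These shares are not of like sets, since 76 of the 83 were above 0 in all 6 libraries, against 1557 of the 9007 tested genes. A gene listed at 0 in an Eldr cKO library cannot lie above every control. Rpl26, a large subunit protein that binds p53 mRNA in human cells (chr11:68901583-68906989 on GRCm38), had values of 102, 108 and 155 FPKM in Eldr cKO and of 41.3, 38.0 and 51.7 FPKM in control. Its mean was 122 ± 28.7 FPKM in Eldr cKO and 43.7 ± 7.16 FPKM in control (SD, n = 3 each). The log2 fold change was 1.44 (limma SE 1.13), and it stayed between 1.26 and 1.57 with 1 library left out. The promoter shown above with both motifs is that of Rpl26, with CTTTC outside the stretch counted near the RefSeq start. About 11.1, 3.20 and 4.90 fragments in Eldr cKO and 10.9, 1.71 and 3.82 in control stood behind these values.

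Rpl27, of the large subunit, was listed at 62.3, 128 and 69.8 FPKM in Eldr cKO and at 34.1, 32.9 and 31.2 FPKM in control, a log2 fold change of 1.30 (limma SE 1.17). The controls lay close together at 32.7 ± 1.44 FPKM, against 86.6 ± 35.9 FPKM in Eldr cKO (SD, n = 3 each), and Eldr cKO 2 was highest. The Rpl27 control values stood on about 9.71, 1.61 and 2.5 fragments, so their SD was smaller than the steps of the data. Rpl41, the smallest ribosomal protein, was listed at 226, 218 and 368 FPKM in Eldr cKO and at 78.1, 146 and 139 FPKM in control, a log2 fold change of 1.17 (limma SE 1.02). Its mean was 271 ± 84.2 FPKM in Eldr cKO and 121 ± 37.4 FPKM in control (SD, n = 3 each). Rps14, a small subunit protein whose human gene is lost in 5q- syndrome, was listed at 137, 89.8 and 116 FPKM in Eldr cKO and at 35.2, 72.8 and 87.3 FPKM in control (log2 fold change 0.88, limma SE 1.11, and 0.49 without control 1). For Rps14 the gap between the groups was that between 89.8 FPKM in Eldr cKO 2 and 87.3 FPKM in control 3. Rpl18, of the large subunit, was listed at 39.3, 23.9 and 24.2 FPKM in Eldr cKO and at 6.57, 21.6 and 19.99 FPKM in control (log2 fold change 0.94, limma SE 1.27, and 0.43 without control 1). In Eldr cKO 2, Eldr cKO 3 and control 2 the Rpl18 value stood on under 1 fragment (0.678, 0.735 and 0.932), so its separation was within the steps of the data.

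In the authors' deposited table the p-value was under 0.05 for 3 of the 83 genes, each higher in Eldr cKO, against 0.81% of the tested genes in that direction. These were Rpl26 (p = 0.00308), Rpl27 (p = 0.0152) and Rpl41 (p = 0.0361) in the authors' deposited table, each with a deposited q-value of 0.761. That test uses each gene's own spread, which for Rpl26 was 0.28 on the log2 scale. For Rpl27 it was 0.39, with as few as 1.61 fragments in a library (control 2). The set of separated genes depended on the scale, and the shares of all tested genes again include many genes at 0 in some libraries. After rescaling to the sum outside mitochondrial and predicted genes, 3 genes were separated and higher in Eldr cKO (Rpl26, Rpl36 and Rpl7a), against 1.82% of all tested genes on that scale, and 0 lower, against 3.26%. Relative to the summed level of the 83 genes, 5 were separated and higher (Rpl26, Rpl27, Rpl36, Rps14 and Rps15a), against 1.14% of all tested genes, and 3 lower (Rpl31, Rpl7 and Rps3a1), against 3.39%. Rpl26 was the 1 gene in all 3 sets.

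**Figure D4:**
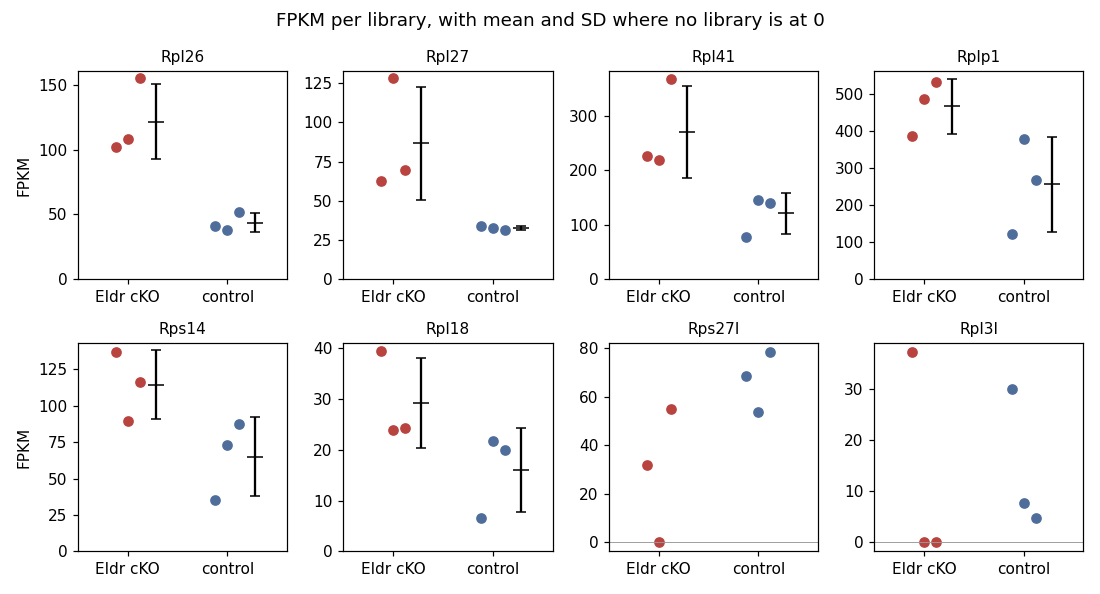
Points are the FPKM of 8 ribosomal protein genes in each of the 3 Eldr cKO (red) and 3 control (blue) libraries, and bars give the mean and SD where no library was at 0. Rpl26 shows the clearest gap, with 102 FPKM as the lowest Eldr cKO value and 51.7 FPKM as the highest control value, while Rps27l and Rpl3l include Eldr cKO libraries at 0.

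The stalk proteins Rplp0, Rplp1 and Rplp2 form the flexible arm that recruits elongation factors, with Rplp0 at its base. Rplp1 was listed at 385, 484 and 530 FPKM in Eldr cKO and at 121, 378 and 267 FPKM in control (log2 fold change 1.00, limma SE 0.93, and 0.54 without control 1). Its mean was 466 ± 74.3 FPKM in Eldr cKO and 256 ± 129 FPKM in control (SD, n = 3 each), and the gap between the groups was narrow, 385 FPKM in Eldr cKO 1 against 378 FPKM in control 2. Rplp0 was listed at 382, 217 and 209 FPKM in Eldr cKO and at 72.6, 278 and 332 FPKM in control (log2 fold change 0.45, limma SE 0.98). Rplp2, the dimer partner of Rplp1, was far lower at 60.9, 13.9 and 48.7 FPKM in Eldr cKO and 27.4, 30.3 and 61.9 FPKM in control (log2 fold change -0.10, limma SE 1.21). Over the 6 libraries the stalk genes averaged 248 FPKM (Rplp0), 361 FPKM (Rplp1) and 40.5 FPKM (Rplp2), and the genotypes overlapped for Rplp0 and Rplp2. The direction turned for Rplp0 without control 1 (-0.23) and for Rplp2 without Eldr cKO 2 (0.54).

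Rpl36 and Rps29 overlapped between genotypes, and Rps29 marked the lower end of the core. Rpl36, of the large subunit, was listed at 405, 190 and 305 FPKM in Eldr cKO and at 122, 62.7 and 229 FPKM in control, a log2 fold change of 1.24 (limma SE 1.01), with overlap between Eldr cKO 2 and control 3. Without control 2 this change was 0.77. Rps29, of the small subunit, was listed at 335, 27.6 and 53.7 FPKM in Eldr cKO and at 203, 135 and 261 FPKM in control, a log2 fold change of -1.26 (limma SE 1.06). Eldr cKO 1 was the highest library for Rps29 and the other 2 Eldr cKO libraries the lowest.

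Rpl5, Rpl11, Rps6, Rps3 and Rps19, which have roles or disease links beyond protein synthesis, overlapped between genotypes. Rpl5 was listed at 68.7, 50.2 and 73.9 FPKM in Eldr cKO and at 42.0, 29.7 and 94.5 FPKM in control. Rpl11, which binds Mdm2 together with Rpl5, was listed at 46.5, 76.1 and 100 FPKM in Eldr cKO and at 53.6, 156 and 95.5 FPKM in control. Their log2 fold changes were 0.36 (Rpl5) and -0.39 (Rpl11), both smaller than their limma SE of 1.16 and 1.12. Rps6, the substrate of S6 kinases, was listed at 151, 266 and 169 FPKM in Eldr cKO and at 169, 80.4 and 268 FPKM in control. Rps3, which also takes part in DNA repair, was listed at 55.5, 55.3 and 29.5 FPKM in Eldr cKO and at 37.0, 40.2 and 78.4 FPKM in control. Rps19, mutated in human Diamond-Blackfan anaemia, was listed at 22.3, 25.6 and 24.1 FPKM in Eldr cKO and at 5.49, 30.6 and 21.7 FPKM in control. The Rps19 values rested on about 2.72, 0.852 and 0.86 fragments in Eldr cKO and on about 1.62, 1.55 and 1.8 in control.

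The paralogs, with means of 1.78 to 47.9 FPKM, were detected less evenly than the core: 1 of 7, Rpl36al, was above 0 in all 6 libraries, against 75 of 76 core genes. Their median within-genotype SD on the log2 scale was 2.12. Rpl3l replaces Rpl3 in ribosomes of heart and skeletal muscle. It was listed at 37.2, 0 and 0 FPKM in Eldr cKO and at 30.1, 7.65 and 4.64 FPKM in control, while Rpl3 was listed at 38.5, 54.7 and 66.0 FPKM in Eldr cKO and at 33.1, 33.3 and 53.8 FPKM in control. Rpl3l was thus at 96.7%, 0% and 0% of the Rpl3 level in Eldr cKO and at 90.9%, 23.0% and 8.62% in control. It was nearly level with Rpl3 in the first library of each genotype, the 2 libraries with the largest heart marker sums (9173.9 FPKM in Eldr cKO 1 and 10086.7 FPKM in control 1). Myh6, a heart myosin, was listed at 1757.6, 293 and 302 FPKM in Eldr cKO and at 2919.7, 527 and 195 FPKM in control, and its part in the Rpl3l levels was not tested. Eldr cKO 1 and control 1 were also the deepest libraries. The Rpl3l values rested on about 7.36, 0 and 0 fragments in Eldr cKO and on about 14.4, 0.629 and 0.625 in control.

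Rps27l had the smallest unadjusted p of the 83 genes. It is a paralog of Rps27 that p53 induces, and it was listed at 32.0, 0 and 54.9 FPKM in Eldr cKO and at 68.7, 53.6 and 78.3 FPKM in control, a log2 fold change of -2.45 (limma SE 1.24, unadjusted p = 0.0482, adjusted p = 1.00). The groups overlapped, since 54.9 FPKM in Eldr cKO 3 lay above 53.6 FPKM in control 2. Without Eldr cKO 2, the library at 0, the log2 fold change was -0.64. Rps27 was listed at 37.8, 50.2 and 17.1 FPKM in Eldr cKO and at 44.3, 63.2 and 62.4 FPKM in control (-0.79, limma SE 1.19). Rps27rt, a retrogene of Rps27, was listed at 0, 0.771 and 0 FPKM in Eldr cKO and at 2.80, 0 and 10.3 FPKM in control.

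The coding sequences show how far reads of these 3 genes could be told apart. Their first 90 coding bases, from GENCODE M21 on GRCm38, are printed with capitals where Rps27l differs from Rps27.
Rps27: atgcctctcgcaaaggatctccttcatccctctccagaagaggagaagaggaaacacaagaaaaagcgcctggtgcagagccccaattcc
Rps27rt: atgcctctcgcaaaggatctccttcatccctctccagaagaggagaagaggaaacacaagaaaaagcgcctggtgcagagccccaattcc
Rps27l: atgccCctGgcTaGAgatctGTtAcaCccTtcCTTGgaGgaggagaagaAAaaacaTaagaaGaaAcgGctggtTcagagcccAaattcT
Rps27 (chromosome 3) and Rps27rt (chromosome 9) were identical over all 255 coding bases, so the split of reads between them is uncertain. Rps27l (chromosome 9) differed from Rps27 at 24 of these 90 bases, and over the whole aligned coding sequence 61.0% of positions were identical. That share counts 63 gap positions as not identical, beside 194 identical bases and 61 mismatches.

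Identity to the core partner was 87.9% for Rpl36al, 84.8% for Rpl10l, 73.2% for Rpl3l, 66.9% for Rpl22l1 and 52.8% for Rpl7l1. Gap positions again counted as not identical, 132 of them for Rpl7l1. Rpl36al was listed at 34.2, 52.3 and 54.0 FPKM in Eldr cKO and at 30.7, 4.55 and 40.1 FPKM in control, and Rpl36a at 92.9, 19.7 and 18.2 FPKM in Eldr cKO and at 46.9, 17.0 and 153 FPKM in control. Rpl36al stood at 36.8%, 265% and 296% of Rpl36a in Eldr cKO and at 65.6%, 26.7% and 26.1% in control. The paralog exceeded its partner in Eldr cKO 2 and 3 and was below it in the other 4 libraries. In Eldr cKO 2, Eldr cKO 3 and control 2, Rpl36a stood on under 1 fragment (0.498, 0.492 and 0.654). Rpl36al stood on about 2.07, 2.29 and 0.274 fragments there, so these ratios were within the steps of the data. Rpl10l, which takes the place of Rpl10 in male germ cells, was listed at 1.35, 0 and 51.1 FPKM in Eldr cKO and at 0 in each control, so its level rested on Eldr cKO 3. Rpl10 was listed at 51.3, 26.2 and 45.6 FPKM in Eldr cKO and at 25.0, 19.3 and 65.6 FPKM in control.

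Rpl7l1 was listed at 8.15, 0 and 0 FPKM in Eldr cKO and at 12.8, 0 and 34.7 FPKM in control, below Rpl7 at 76.4, 40.3 and 54.2 FPKM in Eldr cKO and 72.5, 65.7 and 114 FPKM in control. Rpl22l1 was listed at 2.20, 0 and 0.42 FPKM in Eldr cKO and at 4.25, 0 and 3.83 FPKM in control, below Rpl22 at 19.1, 30.5 and 8.43 FPKM in Eldr cKO and 32.3, 10.2 and 31.5 FPKM in control. Both paralogs lay below their core partner in each of the 6 libraries. Rpl39 and Rps4x, whose paralogs are not analysed here, were listed at 18.1, 53.3 and 46.7 FPKM (Rpl39) and 93.8, 83.7 and 141 FPKM (Rps4x) in Eldr cKO, against 37.2, 45.3 and 38.2 FPKM (Rpl39) and 106, 76.2 and 215 FPKM (Rps4x) in control.

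Fau and Rack1, ribosomal proteins with symbols outside the naming rule, had levels within the range of the core, and limma called neither. Fau, a fusion of a ubiquitin-like protein with a small subunit protein, was listed at 108, 119 and 130 FPKM in Eldr cKO and at 68.8, 83.2 and 196 FPKM in control. Rack1, a signalling scaffold on the small subunit, was listed at 39.7, 40.7 and 38.3 FPKM in Eldr cKO and at 12.6, 26.2 and 51.7 FPKM in control. Control 3 was the highest library for both genes.

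Genes around the ribosome did not pass the test either. Of 15 translation factors with TOP mRNAs, limma called 0, with 8 higher and 7 lower and a median log2 fold change of 0.02, which was -0.44 without control 2 and 0.45 without control 3. Their sums were 2241.8, 1647.9 and 1691.1 FPKM in Eldr cKO and 1225.0, 1417.5 and 3102.8 FPKM in control, highest in control 3 like the ribosomal protein genes. Eef1a1, the elongation factor that brings aminoacyl-tRNA, was listed at 578, 576 and 504 FPKM in Eldr cKO and at 227, 474 and 696 FPKM in control. Pabpc1, the poly(A) binding protein, was listed at 320, 180 and 288 FPKM in Eldr cKO and at 49.1, 321 and 454 FPKM in control.

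Ribosome biogenesis factors were much lower. Of 30 listed, 28 were tested, with 0 called by limma, 9 higher and 19 lower and a median of -0.32, which was 0.32 without control 3, -0.95 without control 2 and -0.91 without Eldr cKO 1. Their sums were 238, 41.9 and 188 FPKM in Eldr cKO and 107, 83.4 and 437 FPKM in control. Ncl, the nucleolar protein nucleolin, was listed at 36.9, 13.0 and 45.1 FPKM in Eldr cKO and at 20.8, 4.03 and 131 FPKM in control. Of 9 tested genes of RNA polymerase I, 4 were higher and 5 lower, and 0 were called by limma. Their median was -0.13, and it was 0.74 without Eldr cKO 3 and -0.57 without control 2. Polr2k, a small subunit shared by the RNA polymerases, was listed at 24.1, 0 and 0 FPKM in Eldr cKO and at 38.3, 146 and 18.6 FPKM in control (limma unadjusted p = 0.00228, adjusted p = 1.00).

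Regulators of ribosomal protein production split into 6 higher and 6 lower, with 0 called by limma. Their median was -0.03, and it was -1.02 without Eldr cKO 1 and 0.75 without Eldr cKO 2. Myc, which drives transcription of ribosomal protein genes, was listed at 47.1, 7.78 and 13.2 FPKM in Eldr cKO and at 4.57, 0 and 42.2 FPKM in control. Rps6kb1, the S6 kinase, was listed at 5.97, 0 and 0 FPKM in Eldr cKO and at 4.18, 18.5 and 21.4 FPKM in control (limma unadjusted p = 0.0442, adjusted p = 1.00). Of 4 genes of ribosomal stress and p53, 1 was higher and 3 were lower (median -0.80, and -1.74 without Eldr cKO 1, -0.28 without Eldr cKO 3, -1.32 without control 2 and -0.14 without control 3), and limma called 0. Mdm2, the ubiquitin ligase that degrades p53, was listed at 4.62, 0 and 0 FPKM in Eldr cKO and at 4.67, 2.47 and 31.7 FPKM in control (log2 fold change -2.28, limma SE 1.39). The other 2 lower genes were Mdm4 (-1.27) and Trp53 (-0.32). Cdkn1a, the p53 target that encodes p21, was listed at 50.2, 0 and 15.0 FPKM in Eldr cKO and at 0 in each control (limma unadjusted p = 0.0205, adjusted p = 1.00). Naca, which shields new peptides at the tunnel exit, was listed at 56.7, 3.75 and 12.1 FPKM in Eldr cKO and at 61.8, 17.4 and 101 FPKM in control, and limma called 0 of the 9 tested genes of its list.

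The 77 mitochondrial ribosomal protein genes, which serve the separate ribosome of that organelle, were far less abundant. Their sums were 833, 336 and 315 FPKM in Eldr cKO and 890, 261 and 537 FPKM in control, so the cytosolic sum was 12.2, 21.0 and 29.2 times larger in Eldr cKO and 6.96, 22.5 and 27.1 times larger in control. Of the 75 tested, 23 were higher and 52 lower in Eldr cKO (median log2 fold change -0.37, and 0.20 without control 1) and limma called 0. Of the 77, 4 were above 0 in all 6 libraries, against 76 of the 83 cytosolic genes.

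**Figure D5:**
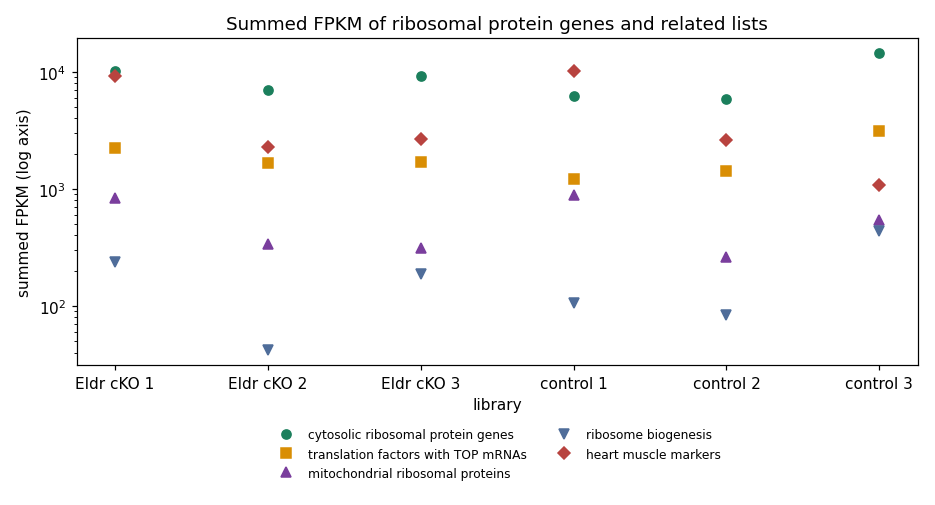
Summed FPKM on a log axis for ribosomal protein genes and 4 related lists in each of the 3 Eldr cKO and 3 control libraries. The translation factor sum was highest in control 3 (3102.8 FPKM), as was the ribosomal protein sum (14556.2 FPKM), while the heart marker sum was lowest there (1085.4 FPKM).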

How the data were processed

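Per the labels' protocols, libraries were stranded and RNA was enriched by poly(A) capture or by depletion of ribosomal RNA, with no note of which library had which. Per the submitters' processing notes, reads were handled with cutadapt, HISAT2 2.0.5 and StringTie. These notes name hg19, while the gene IDs of the deposited table are from mouse. GENCODE M21 held the ID of all 83 ribosomal protein genes, and 76 matched its GRCm38 position within 1 bp. The authors deposited 1 FPKM value per gene and library. The authors' deposited table also gave, per the file headers, group values, a log2 fold change, a fold ratio, a p-value and a q-value.

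Depth was estimated from FPKM steps of genes with 1 transcript (tolerance 3%), and fragments per gene from its median transcript length, which is an assumption. They are estimates, so no count model was used. Genes averaging 1 FPKM or more entered a limma fit (version 3.58.1, R 4.3.3) on log2(FPKM + 1), two-sided, with an intensity trend and Benjamini-Hochberg adjustment over all of them at a threshold of 0.05. A fold change on this scale understates the change of low genes. A value of 0 may be a failed detection and is given as listed at 0. P-values of the reported limma fit rest on the spread between libraries among genes of like level, not on each gene's own spread. Values of the mitochondrial genome rest on 13 genes and those of predicted genes on 280.

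Named genes were the 12 with the highest mean, the 4 with the smallest unadjusted p on each side, the paralogs with their core partners, the stalk genes, Rpl5, Rpl11, Rps6, Rps3 and Rps19, genes listed at 0 in several libraries, and the top members of each list. Others, such as Rps14, Rpl18, Rpl24, Rpl34, Rpl8, Rps28, Rps29 and Polr2k where outside that rule, were chosen after their values were seen. The members and lists were chosen with earlier results of these data known. Promoters are from RefSeq (GRCm38.p6). Simulated data were used to check the limma fit. Tables were handled with pandas 2.3.3 in Python 3.11.15.

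Alternatives were pseudocounts of 0.1 and 0.5, no filter, a minimum of 5 FPKM, quantile normalization, rescaling outside mitochondrial and predicted genes, no trend, quality weights, each library left out, the replicate number as a block, and, chosen after seeing the data, an unmoderated model and both replicates 2 left out.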

Additional observations from a re-analysis of the deposited data

How the results depend on the processing

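Under every alternative fit run, 0 of the ribosomal protein genes were called. The count of genes called in the whole table was 0 in the reported fit, 6 with library quality weights, 2 in the unmoderated model, and from 0 to 4 with 1 library left out. The median log2 fold change of the 83 genes was 0.06 and lay between -0.11 and 0.49 with 1 library left out. The ribosomal protein share differed by -0.234 percentage points, by -2.1 outside mitochondrial transcripts, and by -0.901 to 1.03 with 1 library left out. Quantile normalization set the median of all tested genes to 0.01, against -0.13 without it, and that of the 83 genes to -0.02. With the replicate number as a block, limma called 0 genes, 223 had an unadjusted p under 0.05 against 135 without the block, and the median of the 83 genes was 0.06, or 0.15 with rescaling added. Same-numbered libraries correlated in their deviations at 0.284, 0.152 and 0.0954, each highest with its own number, a hint from the data and not the design.

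Of 680 log2 fold changes of 38 named genes under alternatives, 35 changed sign and 0 were called. After quantile normalization Rpl17 was at -0.12 and Rpl19 at -0.04. Without both replicates 2, Rpl17 was at -0.44, Rps21 at -0.49, Rplp2 at 0.39 and Rps6 at -0.41. With quality weights Rpl39 was at 0.10. With 1 library left out, the range was -0.04 to 0.82 for Rpl10, -0.51 to 0.82 for Rpl17, -0.20 to 0.36 for Rpl19, -0.86 to 0.13 for Rpl22, -0.83 to 0.53 for Rpl23a, -0.98 to 0.11 for Rpl32, -1.36 to 0.19 for Rpl36a, -0.03 to 1.10 for Rpl38, -0.45 to 0.31 for Rpl39, -1.40 to 0.40 for Rpl4, -0.23 to 0.86 for Rplp0, -0.49 to 0.54 for Rplp2, -0.21 to 0.88 for Rps15, -0.10 to 1.04 for Rps19, -0.49 to 1.85 for Rps21, -0.32 to 0.22 for Rps3, -0.55 to 0.18 for Rps3a1, -0.54 to 0.20 for Rps4x and -0.17 to 0.69 for Rps6. The cause of these changes was not tested. A median of 2.69 fragments per gene in Eldr cKO 2 limits what could be detected.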

Other observations

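Rpl10-ps3, an annotated pseudogene of Rpl10 that the naming rule leaves out, was listed at 1.59, 3.77 and 5.02 FPKM in Eldr cKO and at 8.13, 29.2 and 42.2 FPKM in control. The groups did not overlap, the log2 fold change was -2.44 (limma SE 1.34), and the adjusted p was 1.00. It was chosen after its values were seen, and reads of Rpl10 could be split between both genes.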
